A study of Rattus norvegicus with 6 samples.

Results

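Transcripts of 9 genes that the tumour suppressor p53 is known to activate (Mdm2, Cdkn1a, Aen, Phlda3, Ccng1, Sesn1, Zmat3, Fas and Gadd45a) were followed in rat cells that had received endothelial exosomes. They were found by symbol among the 33350 gene models of the deposited expression table, where each symbol had 1 row, and all 9 had a mean of at least 1 FPKM (reads per kilobase of gene model, scaled to the size of the library) and were tested. The 6 libraries are labelled PC12, a line from a rat adrenal pheochromocytoma that is used as a model of neurons and chromaffin cells. In the EC group (3 libraries) the cells received exosomes, small secreted vesicles, from control endothelial cells. In the EN group (3 libraries) the exosomes came from endothelial cells with high expression of NTN1, the axon guidance protein netrin-1, so cells of both groups had received exosomes and no library of untreated cells was analysed here. The sources used here give no dose, time of exposure or species of the endothelial cells. Nothing in the labels says that replicates were separate cultures, so p-values measure the spread between these libraries, which may be technical.

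p53 is a transcription factor that is kept low by the ubiquitin ligase Mdm2 and stabilised by DNA damage and other stresses. It binds a 10-base consensus, usually present as a pair side by side, near genes that halt the cell cycle, trigger apoptosis, repair DNA or limit p53 itself. Cdkn1a (p21) stops cyclin-dependent kinases and so favours repression of cell cycle genes through the RB family and the DREAM complex, while Mdm2 and Ccng1 feed back on p53. Several of these genes also answer to other factors, so a transcript level is not a measure of p53 activity.

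Among the 9 targets, 3 were higher in EN and none was lower: the pleckstrin homology gene Phlda3 by 1.38-fold in mean FPKM, the exonuclease gene Aen by 1.28-fold and Cdkn1a by 1.26-fold. The other 6, among them the feedback genes Mdm2 and Ccng1, did not pass (limma on log2(FPKM + 1), Benjamini-Hochberg adjusted p under 0.05). Over all 12198 genes tested, 14.4% passed, 7.24% as higher and 7.14% as lower, against 33.3% of the targets higher. The median log2 change was 0.06 over the targets and -0.0028 over all genes tested. For 4 targets, these 3 and Zmat3, every EN library lay above every EC library, which was so for 18.6% of all genes tested (19.4% had every EN library below every EC library). Only 1 target passed without EC replicate 2 or EN replicate 2 (Aen), 2 without EC replicate 3 or EN replicate 1 (Aen and Cdkn1a), and 4 without EN replicate 3, where Ccng1 passed as lower. Calls over all genes fell and rose in the same fits. Where targets were lost, 345 to 446 genes passed, and where Ccng1 was gained, 2067 passed, against 1754 with every library. These losses and gains are therefore not particular to the targets.

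**Figure D1:**
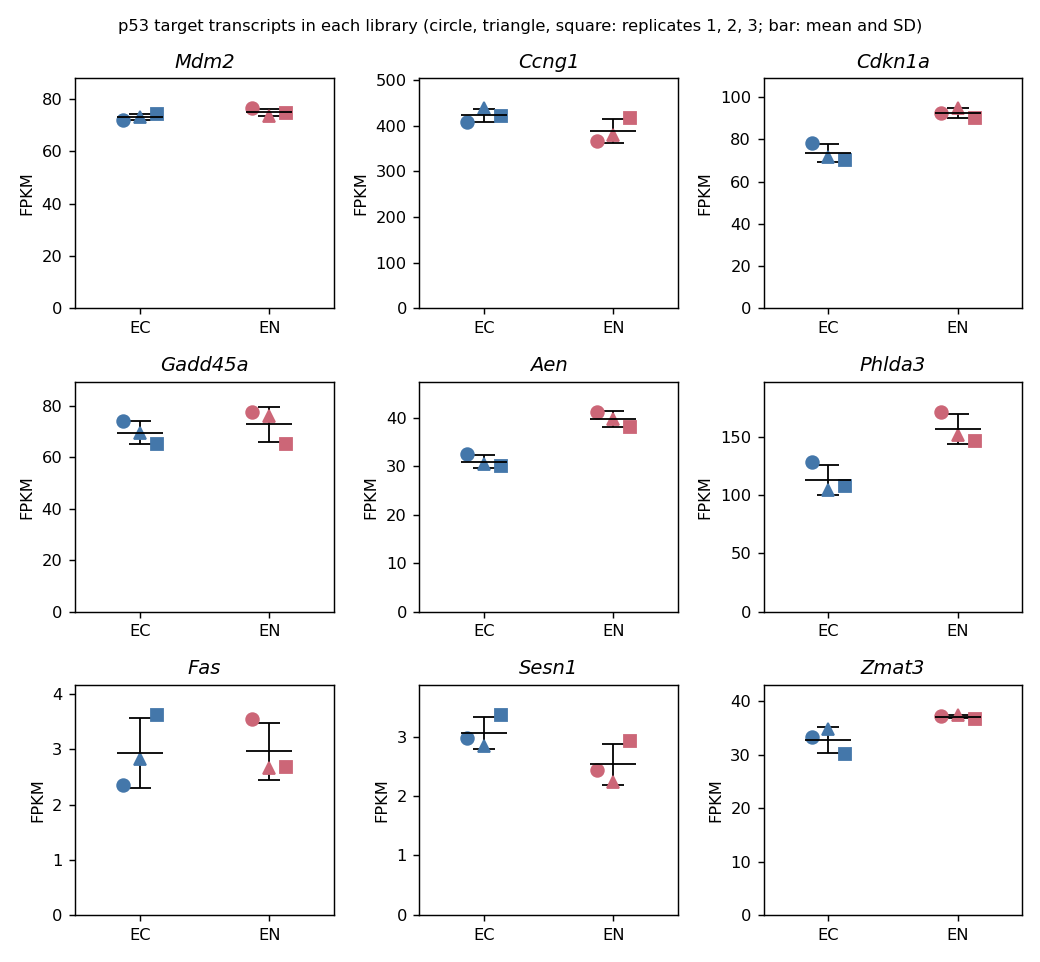
FPKM of the 9 p53 targets (vertical axes, from 0, with a scale for each gene) in the 3 EC and 3 EN libraries; symbols are replicates and bars are the mean and SD. The EN libraries lie above all EC libraries for Cdkn1a, Aen, Phlda3 and Zmat3, and the groups overlap for the other 5 genes.

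The libraries held 15296193 to 16165804 reads in EC and 16654025 to 19626012 in EN, worked back from the FPKM. The share of reads from the mitochondrial genome was 5.43% to 6.09% in EC and 4.40% to 5.50% in EN. With scaling to reads outside it, added after the data were seen, 3 targets and 1789 genes passed, against 3 and 1754. Any other part of this share in the results was not tested. No libraries held identical values. The chi-square per degree of freedom between libraries was 4.08 to 10.1 within groups and 11.9 to 27.0 between them, lowest between groups for EC replicate 1 and EN replicate 3. Among 15 chromaffin markers, the cell type on the labels, 3 had at least 1 FPKM (Scg2, Slc18a2 and Th), and Pnmt and Hand2 were at 0 reads, so most defining markers of the labelled type were absent or low. Of 11 Schwann cell and glial markers found, 10 had at least 1 FPKM, led by S100b, Ngfr and Sox10. Of these 10, 6 were lower and 1 was higher in EN, beside 7.14% and 7.24% of all genes tested. The summed level of the 11 was 478 to 487 FPKM in EC and 420.4 to 453 in EN. The markers did not move together. Mean S100b fell from 131 (EC) to 95.4 FPKM (EN) and Ngfr rose from 99.9 to 114. Sox10 (102 and 105) and Erbb3 (47.0 and 47.7) did not pass. The part of these changes in the results was not tested, and fewer cells of a type cannot be told apart from less RNA per cell in bulk libraries. Leading genes of the other marker lists were Pdgfra, Twist1 and Pdgfrb (fibroblast and mesenchyme, 4 of 10 with at least 1 FPKM), Tie1, Tek and Cdh5 (endothelium, the exosome source, 2 of 9) and Cd68, Cd3e and Lyz2 (leukocyte, 1 of 8), and none of these 3 lists had a gene past the test.

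Promoter windows of 4 targets are shown because their closeness to the p53 consensus differs among the 3 that rose and is as high in Ccng1, which did not pass. Each window runs from 250 bases before to 50 after the start of the RefSeq gene on the GRCr8 assembly, which differs from the build of the expression table, and 8 of the 9 symbols had an entry (Zmat3 had none). The 10-base p53 consensus, which reads the same on both strands, was matched in full in 5 of these 8 windows (Cdkn1a, Aen, Ccng1, Sesn1 and Gadd45a), against 7.98% of all 33469 windows and 4 of 58 windows of the other p53 targets listed. Against the 20-base consensus, a pair of the 10-base ones with no gap, the best window matched at 19 of 20 bases in Cdkn1a and in Ccng1, which 0.072% of all windows reach. It matched at 18 in Aen (0.872% of all windows), 17 in Sesn1 (6.18%), 16 in Phlda3 and Gadd45a (29.7%) and 15 in Mdm2 and Fas (76.2%). A match of letters is a description and not a binding site, and sites outside the window, such as the intronic ones known for Mdm2, were not searched. The windows of Cdkn1a (chr20:7150682-7150981, plus strand), Ccng1 (chr10:25684827-25685126, minus strand), Aen (chr1:142224283-142224582, plus strand) and Phlda3 (chr13:49744753-49745052, plus strand), on GRCr8, follow from 5′ to 3′ on the gene's strand, with the best 20-base match in capitals.
Cdkn1a: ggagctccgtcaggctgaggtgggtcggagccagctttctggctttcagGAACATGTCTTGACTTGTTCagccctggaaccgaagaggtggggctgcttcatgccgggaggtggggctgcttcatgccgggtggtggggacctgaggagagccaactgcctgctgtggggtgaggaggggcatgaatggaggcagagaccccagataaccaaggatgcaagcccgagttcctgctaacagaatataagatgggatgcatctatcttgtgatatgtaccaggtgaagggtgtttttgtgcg
Ccng1: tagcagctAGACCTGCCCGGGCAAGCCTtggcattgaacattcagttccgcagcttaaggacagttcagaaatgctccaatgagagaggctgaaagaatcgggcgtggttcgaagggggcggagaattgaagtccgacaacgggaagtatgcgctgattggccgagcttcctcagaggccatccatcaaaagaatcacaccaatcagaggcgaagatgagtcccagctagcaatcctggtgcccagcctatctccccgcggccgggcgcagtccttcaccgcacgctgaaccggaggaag
Aen: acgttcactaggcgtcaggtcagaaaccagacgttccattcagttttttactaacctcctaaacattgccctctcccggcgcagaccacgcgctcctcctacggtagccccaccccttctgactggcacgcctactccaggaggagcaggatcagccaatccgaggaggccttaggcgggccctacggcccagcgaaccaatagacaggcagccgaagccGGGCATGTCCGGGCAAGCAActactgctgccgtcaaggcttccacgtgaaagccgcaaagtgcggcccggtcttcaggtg
Phlda3: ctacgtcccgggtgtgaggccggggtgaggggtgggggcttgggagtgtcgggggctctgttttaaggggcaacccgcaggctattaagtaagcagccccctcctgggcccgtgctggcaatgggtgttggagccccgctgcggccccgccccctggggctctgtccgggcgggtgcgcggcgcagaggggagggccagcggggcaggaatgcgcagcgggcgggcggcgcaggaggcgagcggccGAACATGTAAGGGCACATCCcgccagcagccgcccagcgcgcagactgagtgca

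The feedback genes Mdm2 and Ccng1 did not pass. Mdm2, the ubiquitin ligase that marks p53 for destruction (chromosome 7, 60719066 to 60743328 on Rnor_6.0, as for all gene coordinates here), was at 71.8, 73.0 and 74.1 FPKM in EC replicates 1 to 3 and at 76.4, 73.6 and 74.7 in EN replicates 1 to 3. The groups overlapped, and the log2 change of 0.04 (SE 0.034, adjusted p = 0.491) had a 95% interval of -0.04 to 0.12, the narrowest of the 9. As a ratio of FPKM + 1, that interval is 0.970 to 1.08. Ccng1, which encodes cyclin G1, a partner of the phosphatase PP2A that acts on Mdm2 (chromosome 10, 25903911 to 25910325), was the most abundant of the 9. It stood at 408, 438 and 422 FPKM in EC and 367, 379.6 and 418 in EN, so that EN replicates 1 and 2 were below all EC libraries and EN replicate 3 was among them. Its log2 change was -0.12 (95% interval -0.26 to 0.0075, adjusted p = 0.175). Without EN replicate 3 it was -0.18, past the test at an adjusted p of 0.039, and it missed the test with any other library left out. Its window has one of the closest matches to the consensus printed above, as close as that of Cdkn1a.

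Of the arrest genes, Cdkn1a rose and Gadd45a did not pass. Cdkn1a (chromosome 20, 6351458 to 6358864) was at 78.5, 71.4 and 70.5 FPKM in EC and at 92.4, 94.7 and 90.0 in EN. The highest EC library, replicate 1, lay below the lowest EN library, replicate 3. Mean levels were 73.5 ± 4.37 and 92.4 ± 2.33 FPKM (SD, n = 3 each). The log2 change was 0.33 (SE 0.050, adjusted p = 0.012 by limma). The adjusted p was 0.057 without EC replicate 2 and 0.056 without EN replicate 2. Gadd45a, which binds PCNA and p21 and inhibits the kinase complex of G2 (chromosome 4, 97782512 to 97784842), was at 73.9, 69.5 and 65.2 FPKM in EC and at 77.6, 75.8 and 65.04 in EN. EN replicate 3 was the lowest of all 6 libraries, and the log2 change of 0.06 had an interval of -0.12 to 0.25 (adjusted p = 0.610). It was 0.19, with an adjusted p of 0.047, when EC replicate 1 and EN replicate 3 were both left out, a choice made after the data were seen.

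Of the apoptosis genes, Aen and Phlda3 rose and Fas did not pass. Aen encodes a nuclear exonuclease that degrades DNA in dying cells (chromosome 1, 140584380 to 140593745). It was at 32.5, 30.5 and 30.0 FPKM in EC and at 41.3, 39.9 and 38.1 in EN, with no overlap. Mean levels were 31.0 ± 1.29 and 39.8 ± 1.62 FPKM (SD, n = 3 each), and the log2 change was 0.35 (SE 0.049, adjusted p = 0.0095). Aen passed with each library left out in turn, with adjusted p of 0.013 to 0.049, the only one of the 9 to do so.

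Phlda3 encodes a small protein that competes with the kinase AKT for membrane lipids and so restrains survival signalling (chromosome 13, 52588917 to 52592001). It was at 128, 104 and 108 FPKM in EC and at 172, 152 and 147 in EN. Replicate 1 was the highest library in each group, and all EC libraries lay below the EN libraries. The means were 113 ± 12.9 and 157 ± 13.2 FPKM (SD, n = 3 each), the largest change of the 9, with a log2 change of 0.47 (SE 0.091, adjusted p = 0.022). With any 1 of 4 libraries left out (EC replicates 2 and 3, EN replicates 1 and 2) the adjusted p was 0.067 to 0.081, and with no expression minimum it was 0.056. Fas, the cell surface death receptor (chromosome 1, 252589785 to 252624790), was at 2.36, 2.83 and 3.62 FPKM in EC and at 3.56, 2.66 and 2.67 in EN, from 93 to 159 reads a library. The groups overlapped over nearly their whole range. The log2 change of 0.01 had an interval of -0.34 to 0.37, so that smaller changes were not detectable with this spread between libraries. Its sign turned to -0.09 without EC replicate 1 or EN replicate 1 and to -0.00075 without EC replicate 2.

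Sesn1 and Zmat3 did not pass, with opposite signs. Sesn1 encodes sestrin 1, a leucine sensor that limits mTORC1 signalling (chromosome 20, 46667121 to 46758305). It was at 2.97, 2.84 and 3.36 FPKM in EC and at 2.43, 2.24 and 2.92 in EN, from 147 to 187 reads a library. EN replicate 3 alone lay within the EC range, and the log2 change was -0.20 (95% interval -0.47 to 0.06, adjusted p = 0.256). Zmat3, a zinc finger protein that binds RNA and acts on splicing and RNA stability (chromosome 2, 118721334 to 118745766), was at 33.3, 34.8 and 30.1 FPKM in EC and at 37.3, 37.5 and 36.8 in EN. The groups did not overlap, but the log2 change of 0.18 (SE 0.057) had an adjusted p of 0.077. It passed in 1 alternative, limma voom on whole reads, at 0.047. Sesn1 and Fas each overlap another gene model on the same strand, so some of their few reads may belong to it.

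**Figure D2:**
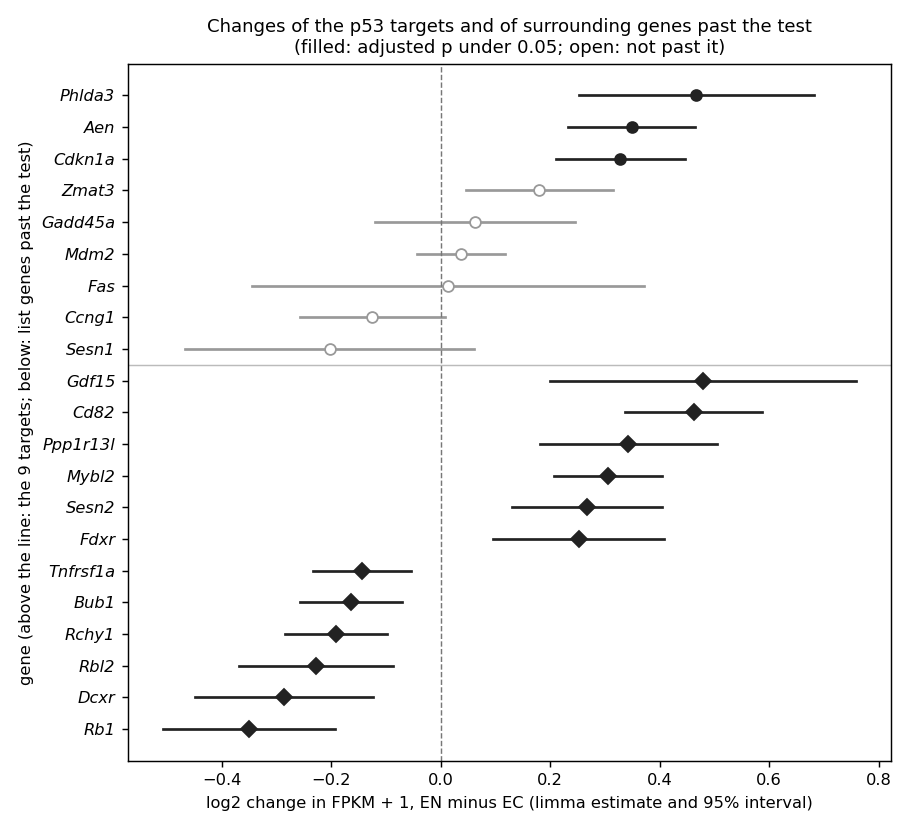
Log2 change in FPKM + 1, EN minus EC (horizontal axis), with its 95% interval from limma, for the 9 p53 targets and for the 12 genes of the surrounding lists past the test. Phlda3, Aen and Cdkn1a, at 0.47, 0.35 and 0.33, are the filled points above the line, and the intervals of Mdm2, Fas, Gadd45a, Ccng1 and Sesn1 include 0.

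Levels among the 9 covered a wide range. Averaged over the 6 libraries, Ccng1 (405 FPKM) was above Phlda3 (135), and Phlda3 was 1.63-fold above Cdkn1a (82.9), in 6 of 6 libraries each. Cdkn1a was above Mdm2 (73.9) in 4 of 6 libraries, all 3 of EN and replicate 1 of EC. Mdm2 was above Gadd45a (71.2) in 3 of 6, and these neighbours did not differ beyond their spread. Gadd45a was above Aen (35.4) in 6 of 6. Aen was above Zmat3 (34.96) in all 3 EN libraries and below it in all 3 EC libraries. Zmat3 was 11.9-fold above Fas (2.95) in 6 of 6, and Fas was above Sesn1 (2.80) in 3 of 6, which did not differ beyond their spread. Measured against Mdm2 within each library (ratios chosen after the values were seen), Cdkn1a was at 1.09, 0.978 and 0.951 times Mdm2 in EC replicates 1 to 3 and at 1.21, 1.29 and 1.21 times in EN. Phlda3 was at 1.79, 1.43 and 1.46 times Mdm2 in EC and at 2.25, 2.06 and 1.97 times in EN. Both ratios were higher in every EN library. Cdkn1a and Phlda3 already had no overlap and Mdm2 spanned only 71.8 to 76.4 FPKM, so these ratios add no separate evidence. They do not show that Mdm2 did not change. Ccng1 was at 5.68 to 5.99 times Mdm2 in EC and at 4.80 to 5.59 times in EN, with a narrow gap and no overlap. The FPKM of Ccng1 itself overlapped between the groups and did not pass. This ratio was also chosen after the values were seen, so it is no evidence of a fall.

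Some libraries were the highest or lowest of their group for several targets. EC replicate 1 was the highest EC library for Cdkn1a, Aen, Phlda3 and Gadd45a and the lowest for Ccng1, Mdm2 and Fas. EN replicate 3 was the lowest EN library for Cdkn1a, Aen, Phlda3, Gadd45a and Zmat3, and the highest for Ccng1 and Sesn1. Other libraries had similar counts. EN replicate 1 was the highest EN library for 5 targets and the lowest for 1. EC replicate 3 was the lowest EC library for 4 targets and the highest for 3. EC replicate 1 and EN replicate 3 were also the closest between the groups over all genes, as given above. Their mitochondrial shares, 5.43% and 5.50%, were the lowest in EC and the highest in EN. When both were left out, 5 targets passed, with Gadd45a added as higher and Ccng1 as lower. Over all genes 2472 of 12196 then passed (1248 higher, 1224 lower) against 1754 with every library. This choice, made after the data were seen, removes the closest pair between the groups. It widens the differences of Gadd45a and Ccng1 by construction, so the added calls are no separate evidence.

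**Figure D3:**
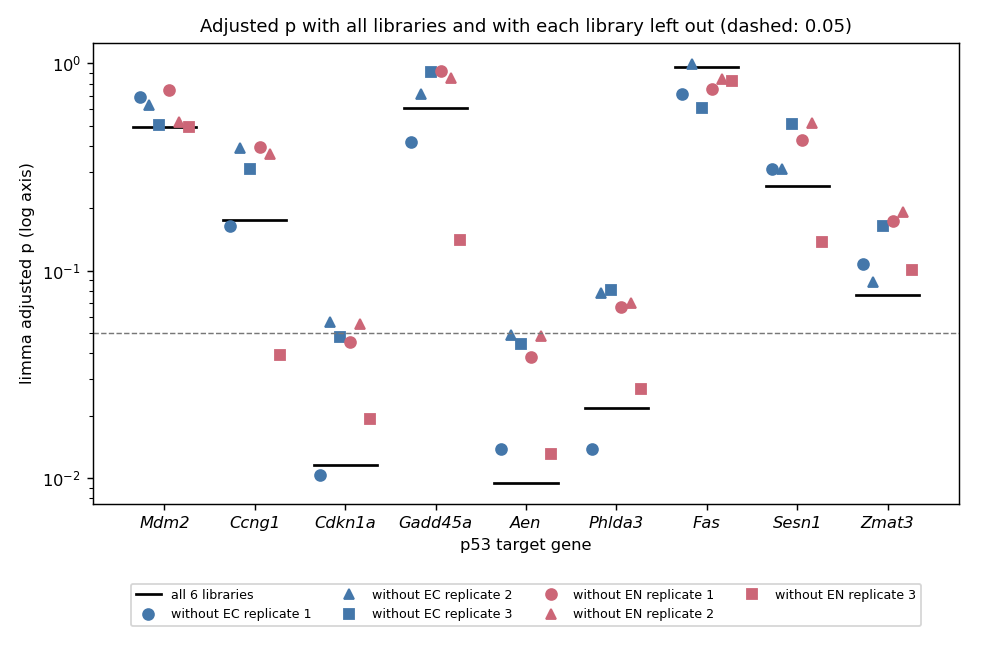
Adjusted p of each target from limma (log axis; dashed line at 0.05) with all 6 libraries (black bars) and with 1 library left out (symbols). Aen stays under the line in every case, Cdkn1a and Phlda3 cross it without 2 and 4 of the libraries, and Ccng1 falls under it without EN replicate 3.

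The genes whose levels followed the mean standardised level of the 9 targets most closely over the 6 libraries were Dhps (Pearson r = 0.999), which encodes the first enzyme of hypusine synthesis on the factor eIF5A, Mns1 (r = 0.998), of meiosis and cilia, and the histone gene H2afz (r = 0.995). All libraries share the 2 groups, and the 3 genes were picked from all 12198 tested, so these values describe the ranking only. Dhps was at 39.5, 39.6 and 40.0 FPKM in EC and at 46.4, 42.8 and 43.5 in EN.

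Most regulators of p53 did not pass. Mdm4, the Mdm2 relative that masks the activation domain of p53, was at 21.01 ± 0.923 and 19.8 ± 1.55 FPKM (EC, then EN; SD, n = 3 each; adjusted p = 0.423). Of 17 tested regulators and cofactors, 1 was higher, 1 was lower and 15 did not pass, with a median log2 change of -0.05. The higher one was Ppp1r13l, which encodes iASPP, an inhibitor of p53 that acts on its apoptotic targets, from 17.8 ± 1.63 to 22.8 ± 0.675 FPKM (log2 change 0.34, adjusted p = 0.024). The lower one was Rchy1, the ubiquitin ligase Pirh2, which also acts on p53, from 35.4 ± 1.06 to 30.9 ± 0.357 FPKM (log2 change -0.19, adjusted p = 0.026). Models on the other strand overlap Rchy1, and the strand setting of the counting is not given. Leaving out EC replicate 2 or 3, or EN replicate 1 or 2, ended both calls, at adjusted p of 0.068 to 0.088 for Ppp1r13l and 0.076 to 0.099 for Rchy1.

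Other known p53 targets, listed without the 9, were read by role. Over the 4 lists, 52 of 64 genes found were high enough to be tested, of which 4 passed as higher, 1 as lower and 47 in neither direction. The higher share, 7.69%, stood beside 7.24% of all genes tested. Their median log2 change was -0.0044. None of the 10 genes of DNA repair and nucleotide supply passed (median -0.02), with Xpc at a log2 change of 0.03, Ddb2 at -0.06 and Rrm2b at -0.0080 (3 genes picked with the values in view). None of the 11 tested genes of arrest and feedback passed either (median 0.03). In that list the relatives of the 9 were Ccng2, from 13.3 to 12.1 FPKM, Gadd45b, from 22.9 to 20.2, and Gadd45g, from 6.29 to 7.61, with adjusted p of 0.225, 0.247 and 0.290. Without EN replicate 3, Gadd45g passed at a log2 change of 0.38 (adjusted p = 0.030).

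Of 12 tested apoptosis targets, 1 was higher and 11 did not pass (median 0.10). The higher one was Fdxr, the mitochondrial ferredoxin reductase gene, at 7.07 ± 0.241 (EC) and 8.62 ± 0.562 FPKM (EN; mean and SD, n = 3 each; log2 change 0.25, adjusted p = 0.048). It was lost without any 1 of EC replicates 1 to 3 and EN replicates 1 and 2, at adjusted p of 0.097 to 0.141. Bax, the pore-forming BCL2 family member, was at 39.8, 38.1 and 38.3 FPKM in EC and at 59.1, 50.5 and 38.9 in EN. EN replicates 1 and 2 stood above every EC library, while EN replicate 3 lay among them. Bax had a log2 change of 0.33 and an adjusted p of 0.146, and without EN replicate 3 it was 0.49 and 0.016. Triap1, named after its value was seen, had 26, 3 and 0 reads in EC and 2, 1 and 2 in EN, and did not pass (log2 change -0.83, adjusted p = 0.453).

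Of 19 tested targets of metabolism, autophagy and secretion, 3 passed as higher, 1 as lower and 15 in neither direction (median -0.02). Cd82, which encodes a tetraspanin that suppresses metastasis, was at 159.6, 147 and 148 FPKM in EC and at 218, 212 and 197 in EN. It had no overlap, a log2 change of 0.46 (SE 0.053, adjusted p = 0.0055) and passed with each library left out. Gdf15, a stress-induced cytokine of the TGF-beta family, was at 2.06, 2.25 and 2.38 FPKM in EC and at 4.20, 3.14 and 3.24 in EN (log2 change 0.48, adjusted p = 0.041). Sesn2, which also answers to amino acid stress, rose from 19.2 ± 1.39 (EC) to 23.3 ± 0.339 FPKM (EN; mean and SD, n = 3 each; log2 change 0.27, adjusted p = 0.029), while Sesn3, also a target of FOXO factors, stood at 28.2 ± 0.714 (EC) and 24.8 ± 2.41 FPKM (EN) without passing (log2 change -0.18, adjusted p = 0.122; 0.031 without EN replicate 3). Dcxr, a carbonyl reductase, fell from 11.9 ± 0.504 to 9.63 ± 0.766 FPKM (log2 change -0.29, adjusted p = 0.039). Gdf15 and Dcxr were each lost with any 1 library left out, at adjusted p of 0.051 to 0.112 and 0.057 to 0.122. Sesn2 was lost when EC replicate 1 or 3, or EN replicate 1 or 2, was left out, at 0.056 to 0.087.

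**Figure D4:**
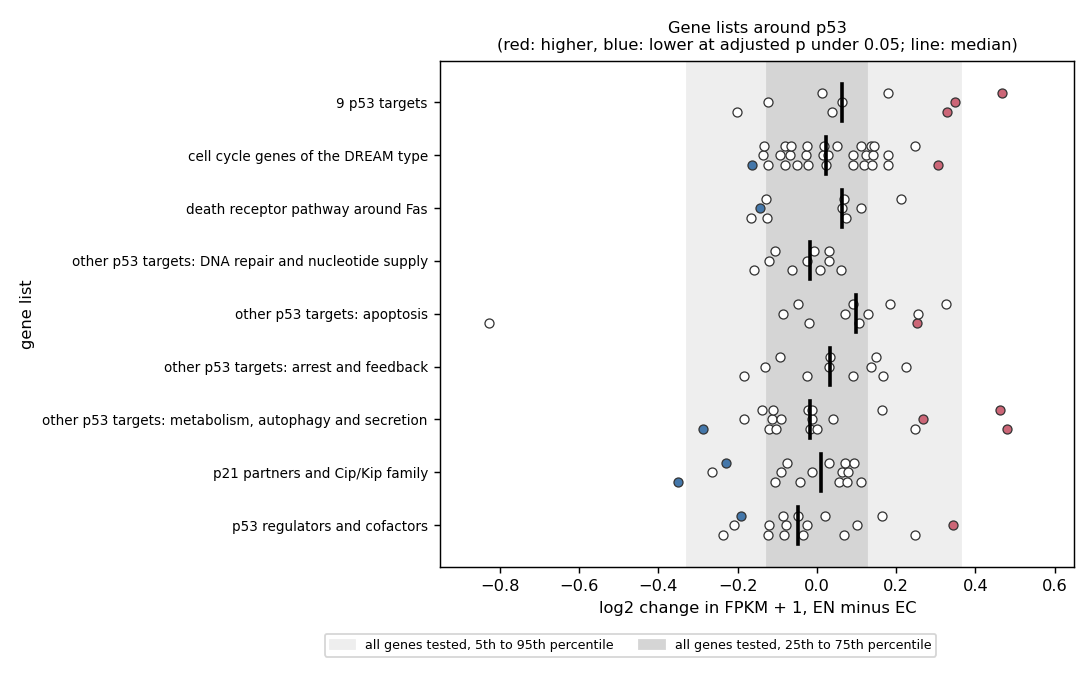
Log2 change in FPKM + 1, EN minus EC (horizontal axis), of each tested gene in the 9 targets and the 8 lists around p53 (rows); the line is the list's median and the shaded bands are percentiles of all genes tested. List medians lie between -0.05 and 0.10, inside the inner band of all genes (-0.13 to 0.13), and 3 targets lie right of it as red points.

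Downstream of p21, the kinase partners and most cell cycle genes did not pass. Of 16 tested genes of p21's partners and relatives, 2 were lower and 14 did not pass (median 0.01). Cdkn1b, the gene of the p27 inhibitor and a relative of Cdkn1a, was at 61.7, 63.4 and 64.8 FPKM in EC and at 62.0, 59.6 and 58.6 in EN (log2 change -0.08, adjusted p = 0.229). Those that fell were of the retinoblastoma family, which holds back E2F factors. Rb1 went from 20.8, 22.0 and 24.5 FPKM in EC to 17.3, 16.8 and 18.03 in EN (log2 change -0.35, SE 0.067, adjusted p = 0.021), and Rbl2 from 9.48 ± 0.292 (EC) to 7.95 ± 0.401 FPKM (EN; mean and SD, n = 3 each; log2 change -0.23, adjusted p = 0.047). The Rb1 call was lost when EC replicate 2 or 3, or EN replicate 1 or 2, was left out (0.061 to 0.080) and that of Rbl2 with any 1 library left out (0.062 to 0.152). A model on the other strand, Lpar6, lies within Rb1.

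Of 31 tested cell cycle genes of the type that DREAM represses, 1 was higher, 1 was lower and 29 did not pass (median 0.02). For 12 of the 31, every EN library lay above every EC library, and for 4 every EN library lay below. Over all genes tested these shares were 18.6% and 19.4%. Mybl2, a transcription factor of the late cell cycle, rose from 23.4, 22.5 and 22.8 FPKM in EC to 29.4, 28.6 and 27.8 in EN (log2 change 0.31, SE 0.041, adjusted p = 0.0089) and passed with each library left out. Bub1, a spindle checkpoint kinase gene, fell from 49.9 ± 0.879 (EC) to 44.5 ± 1.41 FPKM (EN; mean and SD, n = 3 each; log2 change -0.16, adjusted p = 0.039). Bub1 was lost without any 1 of EC replicates 1 to 3 and EN replicates 1 and 2, at 0.057 to 0.122. Around Fas, 1 of 9 tested genes of the death receptor pathway was lower and 8 did not pass (median 0.06). That gene was Tnfrsf1a, a TNF receptor, from 34.3 ± 0.596 to 30.9 ± 0.589 FPKM (log2 change -0.14, adjusted p = 0.048, and 0.073 to 0.151 with any 1 library left out). In all 8 lists, 6 of 125 tested genes were higher and 6 lower, 4.8% each way, beside 7.24% and 7.14% of all genes tested. The split of the lists was 11 and 3 on the TPM scale, and 9 and 5 with median centring or quantile normalization. It was 10 and 4 when scaled to reads outside the mitochondrial genome, and 14 and 4 by limma voom. Over all genes the split was 883 and 871, and it also moved towards higher with most of these settings. It became 957 and 766 on TPM, 943 and 789 with median centring and 882 and 858 with quantile normalization. Outside the mitochondrial genome it was 956 and 833, and by voom 1387 and 960.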

How the data were processed

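RNA of the 6 libraries (3 EC, 3 EN) was taken with Trizol and made into libraries with a TruSeq kit from 1 ug, per the labels' protocols. Tools and builds listed, without a role, per the submitters' processing notes, are HISAT2 2.0.5 and Rnor_6.0. The counter, annotation release, strand setting and filters were not given in the sources used here. What the authors deposited is FPKM per gene model. Multiplied by gene length, 100% of the non-zero values fell within 0.001 of whole multiples of a constant for each library, which gave whole reads. The library size implied by that constant was 0.987 to 1.02 of their total.

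Groups were compared on log2(FPKM + 1) by limma 3.58.1 (R 4.3.3), two-sided, with a mean-variance trend and group as the only term. The fit took the 12198 genes whose mean reached 1 FPKM, and p-values were adjusted over all of them by Benjamini-Hochberg. This scale understates the change of low genes, and folds are ratios of mean FPKM. The code was tested on simulated data.

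The 9 targets and the lists were chosen with earlier results of these data known. Of 149 entries in 8 pathway lists, 142 matched by symbol, 1 through an older symbol in RefSeq's table (GRCr8) and 6 were not matched (Chek1, Trim22, Bbc3, Tigar, Sco2 and Ccnb2, not analysed here). Of 55 marker entries, 53 matched. Named genes are the 9 targets, up to 4 genes per pathway list with the smallest adjusted p past the threshold, 11 relatives or central genes of p53 biology whatever their values, the 3 highest genes of each marker list and the 3 genes most like the targets over the libraries. Names outside this rule are marked where they stand. Some genes of this rule are not reported here. Promoter sequences are RefSeq's (GRCr8). The alternatives tried are given in the closing part.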

Additional observations from a re-analysis of the deposited data

How the results depend on the processing

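The count of 3 targets past the test was 1 to 4 with 1 library left out and 5 with EC replicate 1 and EN replicate 3 both left out. Over all genes it was 1754, and 345 to 2067 with 1 library left out (347, 409, 446 and 345 without EC replicates 2 and 3 and EN replicates 1 and 2), 866 with no expression minimum, 1019 with no variance trend and 2472 with both libraries left out. In the 8 lists around p53 it was 12, and 2 to 17, 4, 5 and 17 under these settings. Median centring, quantile normalization, TPM, pseudocounts of 0.1 and 0.5, a minimum of 5 FPKM, removal of the trend with gene length, limma voom and scaling to reads outside the mitochondrial genome kept each count within 1.5 times; Fas and Sesn1 are under the minimum of 5 FPKM and have no value there. Scaling to those reads and leaving out both libraries were added after the data were seen. The log2 change of Fas ranged from -0.094 to 0.14 with 1 library left out (-0.094, -0.00075 and -0.092 without EC replicate 1, EC replicate 2 and EN replicate 1) and was -0.043 without both libraries; no other target changed sign. With the replicate number as a block, 3 targets, 1907 genes and 11 list genes passed. Correlations of the deviations of same-numbered libraries from the group means were 0.088, -0.095 and -0.020. Those of differently numbered libraries ran from -0.11 to 0.13. The labels state no pairing, and with so few libraries these values cannot exclude one. Among the list genes named, under the block Fdxr, Tnfrsf1a, Dcxr, Gdf15 and Rbl2 no longer passed, at 0.075, 0.060, 0.068, 0.070 and 0.079. Rbl2 also missed the threshold in 8 further alternatives that kept all libraries or left out both. Among the 9 targets, read numbers limit Fas and Sesn1 most, with 187 reads a library at most; intervals from reads cover counting error only.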

Other observations

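Some genes of p53 biology were at or near 0 in both groups. No read was counted in any of the 6 libraries for Cdkn2a, which encodes ARF, an inhibitor of Mdm2, and the kinase inhibitor p16; for Pmaip1 (Noxa) and Rprm (reprimo), both known p53 targets; or for Cdkn1c, the p57 member of the Cdkn1a family. A count of 0 allows up to 0.033 FPKM for Cdkn2a, 0.011 for Pmaip1, 0.021 for Rprm and 0.015 for Cdkn1c over all 6 libraries (3 reads, counting error only). A few more were named after their values were seen. Tp63, a p53 relative, had 4 reads in EC and 2 in EN. The death ligand gene Faslg had 9 reads in each group, at a mean of 0.110 FPKM, while its receptor gene Fas was at 2.95. The death receptor gene Tnfrsf10b had 2 reads in EC and 1 in EN, and Perp had 1 read in all.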
